A study of Mus musculus with 6 samples.

Results

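Ceruloplasmin (Cp) and 8 other genes of cellular iron handling were followed in total RNA of the mouse breast carcinoma line 4T1, with and without induction of a LINE-1 (L1) retrotransposon. The 9 genes, of 24421 in the count table, were taken by symbol for their roles in iron uptake (Tfrc, Steap3, Slc11a2), storage (Fth1, Ftl1), export (Slc40a1, Cp) and sensing (Aco1, Ireb2). They were listed with the untreated against doxycycline results of these same libraries already known. Their differences between the groups are therefore given as a description. Where the fit across all genes called a member or did not, this is stated, but it is no independent test of that member. All 6 libraries came from 4T1-tetL1(GLucAI) cells of the BALB/cfC3H strain, a blasticidin-selected population and not a single clone. Both groups carried the same PiggyBac-integrated cassette, in which an EF1α promoter drives the Tet-On 3G activator. A bidirectional doxycycline-responsive promoter drives a recoded mouse L1 with a Gaussia luciferase reporter of retrotransposition. In the other direction it drives firefly luciferase. One group of 3 libraries was untreated (its treatment tag reads vehicle) and the other, also of 3 libraries, received 400 ng/mL doxycycline over 48 h. Cells without the cassette and with doxycycline were not analysed here, so effects of the drug, of L1 and of firefly luciferase cannot be told apart. The transcript of the cassette was not analysed here either, and every direction rests on the sample labels.

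Iron enters most cells bound to transferrin, through the transferrin receptor. In the endosome it is released, reduced by a STEAP ferrireductase and moved to the cytosol by the divalent metal transporter. Iron that is not used at once is stored inside ferritin shells of heavy and light chains or leaves through ferroportin, the only known cellular iron exporter, and ceruloplasmin, a copper-containing ferroxidase, oxidises it so that transferrin can bind it. The iron regulatory proteins IRP1 and IRP2 bind hairpins called iron-responsive elements (IREs) in mRNAs when iron is scarce. Elements in a 5' UTR then block translation, whereas elements in the 3' UTR protect the mRNA from decay. Read counts measure mRNA and not translation, so they can bear on the second mode and not on the first.

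The IREs of the members are shown because they are the sequences through which iron acts on these mRNAs. Since the genes were taken for iron handling, which includes targets of IRP1 and IRP2, the number that hold an element is a description of the set. In GENCODE M21 transcripts (GRCm38) a site was counted where a C was followed by 5 bases, the loop CAGTGN, and 5 bases that paired with the first 5 by Watson-Crick or G-T pairs. Capitals mark the bulged C and the 6 bases of the loop, each line holds 27 bases of the sense strand 5' to 3', and T stands for U.
Fth1, 5' UTR, chr19:9982733-9982759, plus strand: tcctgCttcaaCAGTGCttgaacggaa
Ftl1, 5' UTR, chr7:45459780-45459806, minus strand: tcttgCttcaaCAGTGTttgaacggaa
Slc40a1, 5' UTR, chr1:45925466-45925492, minus strand: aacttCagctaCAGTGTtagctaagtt
Tfrc, 3' UTR, chr16:32631220-32631246, plus strand: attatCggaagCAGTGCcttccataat
Tfrc, 3' UTR, chr16:32631599-32631625, plus strand: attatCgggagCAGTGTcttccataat
Tfrc, 3' UTR, chr16:32631664-32631690, plus strand: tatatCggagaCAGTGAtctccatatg
Tfrc, 3' UTR, chr16:32631711-32631737, plus strand: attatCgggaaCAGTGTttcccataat
Of the 9 members, 4 held such a site in a UTR and 5 did not (Cp, Slc11a2, Aco1, Ireb2 and Steap3). Among 21875 protein-coding genes searched, 0.709% held one in either UTR. The definition is strict and misses hairpins with an extra unpaired base. The absence of a match in Slc11a2, of which one mRNA form is known to carry an element, says only that these letters are not in the transcripts searched. The sites of Fth1 and Ftl1 lay 92 and 83 bases from the start of their transcripts, while the 4 sites of Tfrc lay 892 to 1383 bases after the end of the coding sequence.

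Library totals ran from 31653464 to 43631312 counts, with overlapping ranges in the groups, and 3 counts, taken as the floor of detection, corresponded to 0.0683 to 0.0943 CPM (reads scaled to a common library size by TMM, edgeR). This floor covers counting error only. The paper calls the triplicates of this experiment biological, but the labels do not say whether they were separate cultures. The p-values therefore measure the spread between these libraries, part of which may be technical. Replicates differed by more than sampling noise, with chi-square statistics per degree of freedom from 6.37 to 23.28. The 2 highest of these (23.28 and 15.24) were the pairs of doxycycline replicate 2 with its fellow replicates, and values without it are given beside some of the genes below. All 8 epithelial markers were above 1 CPM, with a sum of 1840 to 1930 CPM in untreated and 1790 to 2020 CPM in doxycycline libraries. Among them only Krt19, a keratin, was called. It fell from 63.5 ± 2.15 to 51.3 ± 4.22 CPM (SD, n = 3, log2 difference -0.31, edgeR adjusted p = 0.0078). Epcam (log2 difference 0.13) and Cldn7 (0.33) were higher in every doxycycline library than in every untreated one, but were not called. The groups of Krt8, Krt18, Krt7, Cdh1 and Cldn3 overlapped. Of 5 markers of hepatocytes, the main source of plasma ceruloplasmin, 3 had 0 counts in every library, and the summed level was 1.48 to 2.61 CPM in untreated and 1.54 to 1.93 CPM in doxycycline libraries. Of 5 macrophage markers only Cd68 exceeded 1 CPM, Adgre1 had 0 counts, and the sum was 9.72 to 12.1 and 9.27 to 11.4 CPM. Of 5 fibroblast markers only Pdgfra exceeded 1 CPM and Col3a1 had 0 counts. In bulk RNA, fewer cells of a type and less RNA per cell cannot be told apart.

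Cp stood apart from the other 8 genes in the comparison of untreated and doxycycline cells. It was lower with doxycycline, by a difference of -26.3%, at nearly the same level in each replicate of a group. Fth1 and Tfrc were lower by smaller amounts, and of the remaining 6 only Aco1 had groups that did not overlap. In the fit across all 13084 genes tested (edgeR quasi-likelihood test, Benjamini-Hochberg adjusted p under 0.05), 2 of the 9 members were called lower, Cp and Fth1, and 0 higher. With no adjustment (p under 0.05) 3 were lower and 0 higher, beside 8.95% and 7.25% of all genes, and DESeq2 and limma voom also called 0 higher. The share of all genes called was 3.09% in either direction, 0.925% higher and 2.16% lower. Nothing is read from the members' count, since the genes were chosen with this contrast known. Their median log2 fold change was -0.07, and that of all genes tested was 0.0025.

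**Figure D1:**
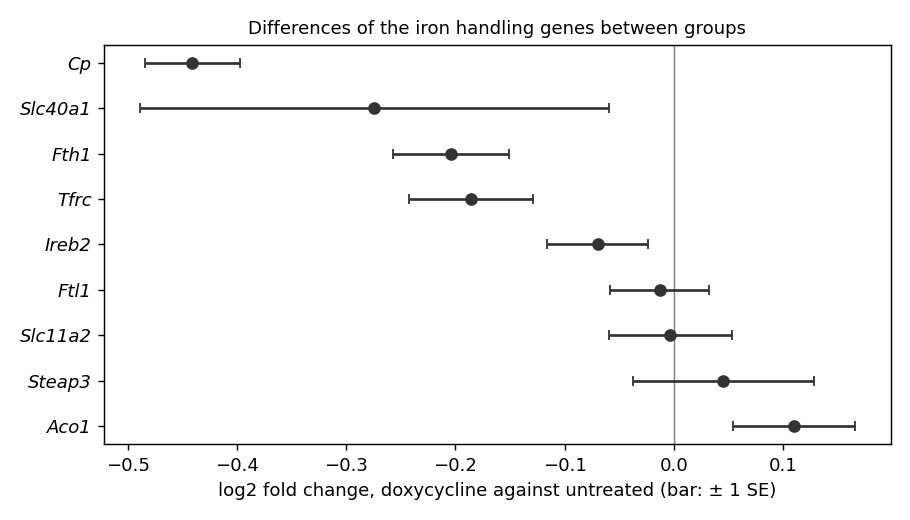
Log2 fold change of each of the 9 genes, doxycycline against untreated, on the x axis, with bars of 1 standard error from the fit across all genes. Cp lies farthest below 0 for its error at -0.44, Fth1 lies at -0.20 and Tfrc at -0.19, and the wide bar belongs to Slc40a1, the least abundant of the 9.

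Cp (chromosome 3, 19956933 to 20009750, plus strand, GRCm38, protein-coding) encodes ceruloplasmin. Its level was 243, 240 and 235 CPM in untreated replicates 1 to 3 and 176, 175 and 179 CPM in doxycycline replicates 1 to 3. All 3 doxycycline libraries were below all 3 untreated ones, with a gap between the groups many times wider than the spread inside either. The coefficient of variation was 1.65% among untreated and 1.17% among doxycycline libraries. The means were 239 ± 3.95 and 176 ± 2.06 CPM (SD, n = 3 each), a difference of -26.3% and a log2 fold change of -0.44 (SE 0.04). Leaving out each library in turn or changing the scaling, the filter or the tool moved this value between -0.45 and -0.43. At least 5597 reads stood behind Cp in each library. The 3' part of Cp overlaps Hps3 on the opposite strand, and the strand setting of the counting was not stated. Hps3, which acts in the formation of lysosome-related organelles, had 33.2 ± 1.29 CPM in untreated and 33.9 ± 3.16 CPM in doxycycline libraries, which is 0.03 on the log2 scale (SE 0.07, adjusted p = 0.90 by edgeR). The summed fibroblast markers, nearly all Pdgfra, were also lower with doxycycline (35.5 to 38.2 CPM in untreated, 27.4 to 28.7 CPM in doxycycline libraries). Whether that has a part in the level of Cp was not tested. Counts per gene do not separate the secreted from the membrane-anchored form of ceruloplasmin.

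**Figure D2:**
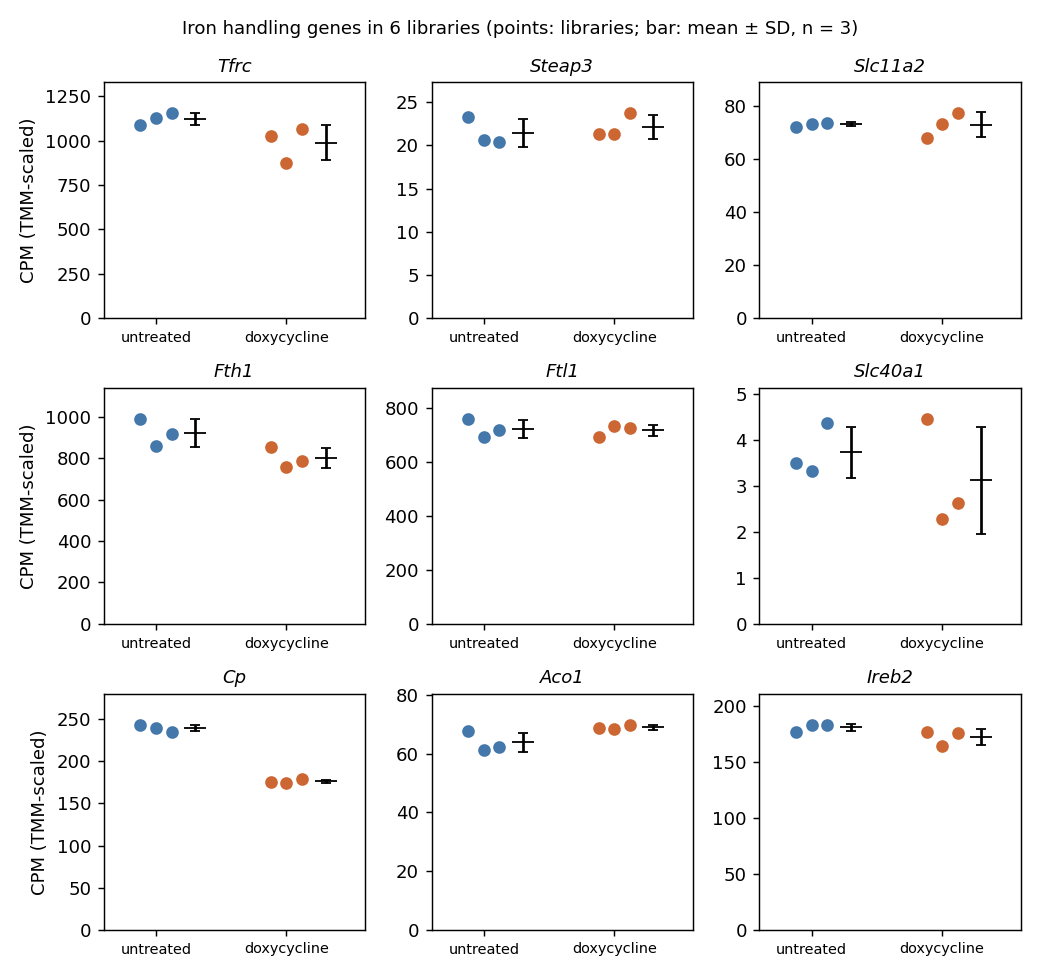
Level of each of the 9 genes (y axis, CPM from 0) in the 3 untreated and 3 doxycycline libraries, with points for libraries and a bar for the mean ± SD. The Cp points form separate tight groups at 235 to 243 and at 174 to 179 CPM, the Tfrc and Fth1 groups are separated by narrow gaps, and the points of Ftl1, Slc11a2, Steap3, Ireb2 and Slc40a1 overlap.

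Slc40a1 (chromosome 1, 45908070 to 45926532, minus strand) encodes ferroportin, the exporter with which ceruloplasmin works. It was barely expressed, with 93 to 164 reads in a library. Its level was 3.51, 3.33 and 4.38 CPM in untreated and 4.46, 2.28 and 2.64 CPM in doxycycline libraries. The groups overlapped, since doxycycline replicate 1 was the highest of all 6 and replicates 2 and 3 the lowest. The log2 fold change of -0.27 had an SE of 0.21. Leaving out doxycycline replicate 1 gave -0.61, whereas leaving out replicate 2 or 3 of that group gave -0.09 or -0.17, and leaving out untreated replicate 3 gave -0.15. At this depth the size of any difference cannot be read. Heph and Hephl1, the membrane-bound relatives of ceruloplasmin, were at 0 counts throughout, and 3 counts would be 0.0943 CPM in the shallowest library. Hamp, which encodes hepcidin, the hormone that degrades ferroportin, had 2 counts in doxycycline replicate 2 and 0 in the others.

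Of the ferritin genes, Fth1 was lower with doxycycline and Ftl1 was not. Fth1 (chromosome 19, 9980600 to 9985111, plus strand) encodes the heavy chain, which carries the ferroxidase centre of the shell. It had 988, 856 and 917 CPM in untreated and 853, 757 and 788 CPM in doxycycline libraries. The highest doxycycline library was just below the lowest untreated one, so the groups did not overlap but nearly met. The log2 fold change was -0.20 (SE 0.05), a difference of -13.2%. It fell short of the threshold in 3 of 6 fits with a library left out, at -0.15 without untreated replicate 1, -0.21 without untreated replicate 3 and -0.19 without doxycycline replicate 3. Ftl1 (chromosome 7, 45457944 to 45459886, minus strand) encodes the light chain, which helps the shell to mineralise iron. It ranged from 693 to 758 CPM in untreated and from 692 to 731 CPM in doxycycline libraries, with a log2 fold change of -0.01 (SE 0.05) that changed sign in 2 of 14 alternatives. Reads of Fth1 per read of Ftl1 were 1.3, 1.24 and 1.28 in untreated and 1.23, 1.04 and 1.08 in doxycycline libraries. This ratio was lower in every doxycycline library than in every untreated one, although the 1.24 and 1.23 of the nearest libraries are close. Reads of Tfrc per read of Fth1 overlapped, at 1.1, 1.32 and 1.26 in untreated and 1.2, 1.16 and 1.35 in doxycycline libraries. The share of all gene pairs whose ratios separate the groups was not computed, so such ratios are a description only. Both ferritin genes have processed pseudogenes in the mouse genome, so reads may be lost from them or shared with those copies.

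Among the uptake genes Tfrc was lower in the doxycycline libraries, and Steap3 and Slc11a2 were not. Tfrc (chromosome 16, 32608896 to 32632794, plus strand), the transferrin receptor, had 1090, 1127 and 1156 CPM in untreated and 1025, 877 and 1064 CPM in doxycycline libraries. The groups did not overlap, and doxycycline replicate 2 was far below its fellow replicates. The log2 fold change was -0.19 (SE 0.06), -0.11 without doxycycline replicate 2 and -0.24 without doxycycline replicate 3. The gene was not called in the fit across all genes. It was called without a filter and with the replicate number as a block, each at -0.19. Steap3 (chromosome 1, 120226414 to 120271081, minus strand), the endosomal ferrireductase, ranged from 20.4 to 23.2 CPM in untreated and from 21.3 to 23.7 CPM in doxycycline libraries, a log2 fold change of 0.05 (SE 0.08) that was 0.07 without doxycycline replicate 2. Slc11a2 (chromosome 15, 100387898 to 100424209, minus strand), the divalent metal transporter DMT1, had a log2 fold change of -0.003 (SE 0.06). Its doxycycline range of 67.9 to 77.2 CPM enclosed the untreated range of 72.1 to 73.6 CPM. Its 5' end overlaps the noncoding Gm5475 on the other strand, and counts per gene do not separate its mRNA forms with and without an IRE.

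Neither iron sensor was called in the fit across all genes. Aco1 (chromosome 4, 40143265 to 40199009, plus strand) encodes IRP1, which serves as cytosolic aconitase when it holds an iron-sulfur cluster. It had 67.6, 61.4 and 62.4 CPM in untreated and 68.7, 68.3 and 69.8 CPM in doxycycline libraries. The doxycycline libraries were all above the untreated ones, by a gap smaller than the spread of the untreated group, and the log2 fold change was 0.11 (SE 0.06). Of the 9 members it was the only one whose groups separated upward, against 10.1% of all genes tested, and 3 separated downward, against 11.1%. Ireb2 (chromosome 9, 54862658 to 54912534, plus strand) encodes IRP2, which is degraded when iron is plentiful. It ranged from 177 to 183 CPM in untreated and from 164 to 177 CPM in doxycycline libraries, with a log2 fold change of -0.07 (SE 0.05), or -0.04 without doxycycline replicate 2, and the groups overlapped at 177 CPM. Reads of Ireb2 per read of Aco1 were 2.62, 2.98 and 2.94 in untreated and 2.58, 2.41 and 2.52 in doxycycline libraries. The doxycycline values were all lower, the nearest pair being 2.62 and 2.58.

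To order the genes by level, CPM was divided by the length of the longest principal transcript in GENCODE M21. In untreated libraries Ftl1 had 747 ± 34.2 CPM per kb and Fth1 616 ± 44.3 (SD, n = 3). The order of this pair depends on the Fth1 transcript, since with the 929-base form in place of the 1494-base form Fth1 had 991 ± 71.2 CPM per kb. Tfrc followed with 230.0 ± 6.76, Cp with 59.4 ± 0.98, Ireb2 with 31.4 ± 0.60, Slc11a2 with 24.1 ± 0.26 and Aco1 with 16.7 ± 0.88 CPM per kb. Steap3 (4.15 ± 0.305) and Slc40a1 (1.11 ± 0.17) came last. In doxycycline libraries the order was the same, with Cp at 43.8 ± 0.52 CPM per kb, and the ranges of neighbours did not overlap in either group.

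**Figure D3:**
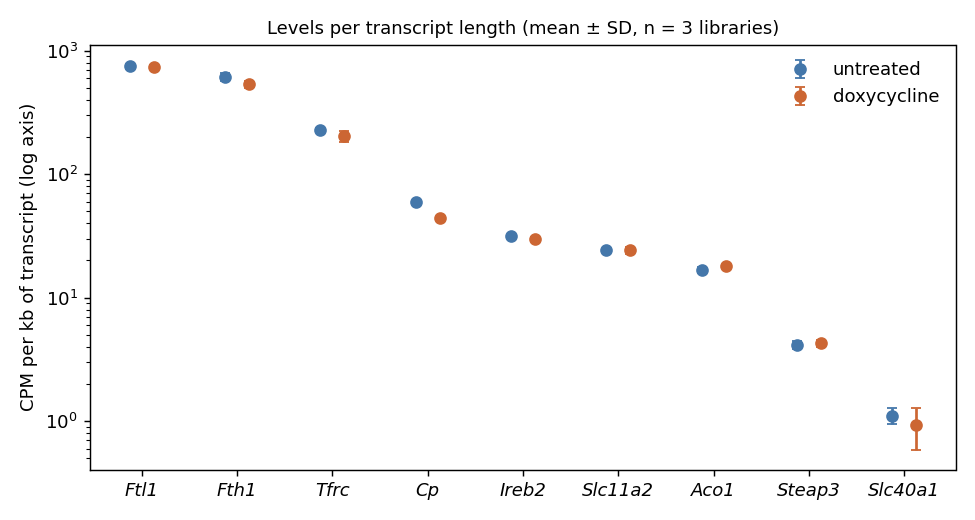
Level of each gene per kb of transcript on a log axis, ordered by the untreated mean, with the mean ± SD of 3 libraries in each group. The ferritin genes stand between 535 and 747 CPM per kb, Cp between 43.8 and 59.4, and Slc40a1 near 1.

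The genes that followed Cp most closely were sought among 11656 genes with a mean of at least 1 CPM, by the root mean square difference of log2 CPM, each gene centred on its own mean, over the 6 libraries. The median gene differed from Cp by 0.237 on this scale. The nearest was the phosphodiesterase gene Pde4a (0.0382), followed by the growth factor receptor gene Pdgfra (0.0403), the adhesion scaffold gene Nedd9 (0.0433), the lysosomal protease gene Ctso (0.0439) and the secretory GTPase gene Rab27b (0.0451). None of the 5 is known for iron handling. Pdgfra had 36.7 ± 1.37 CPM in untreated and 27.8 ± 0.67 CPM in doxycycline libraries. These genes were picked for sharing the pattern of Cp, so their own differences are no further evidence. The likeness over 6 libraries in 2 groups mostly reflects a difference of similar size between the groups.

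Beyond the members, 108 further genes were listed by function for iron, heme, iron-sulfur cluster and copper handling. Of these 105 were in the table, 91 were tested, and Tf, Flvcr1 and Flvcr2 were not analysed here. In the edgeR test 4 of the 91 fell with doxycycline, Lcn2, Ltf, Mt1 and Mt2, or 4.4% against 3.09% of all genes tested. The lists were drawn up with results of these libraries known, so this share is not independent evidence about iron or copper genes. The number called higher was 0, while with no adjustment 5 were higher and 11 lower (p under 0.05), which is 16 of 91 beside 16.2% of all genes tested, and DESeq2 and limma voom also called 0 higher. The median log2 fold change was -0.0044. Without doxycycline replicate 2, 8 were called lower, the added ones being Steap4 (-2.22), Slc31a2 (-0.38), Alas1 (-0.28) and Lrp1 (-0.21). Without doxycycline replicate 1, Herc2 (0.22) and Slc25a28 (0.34) were called higher.

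**Figure D4:**
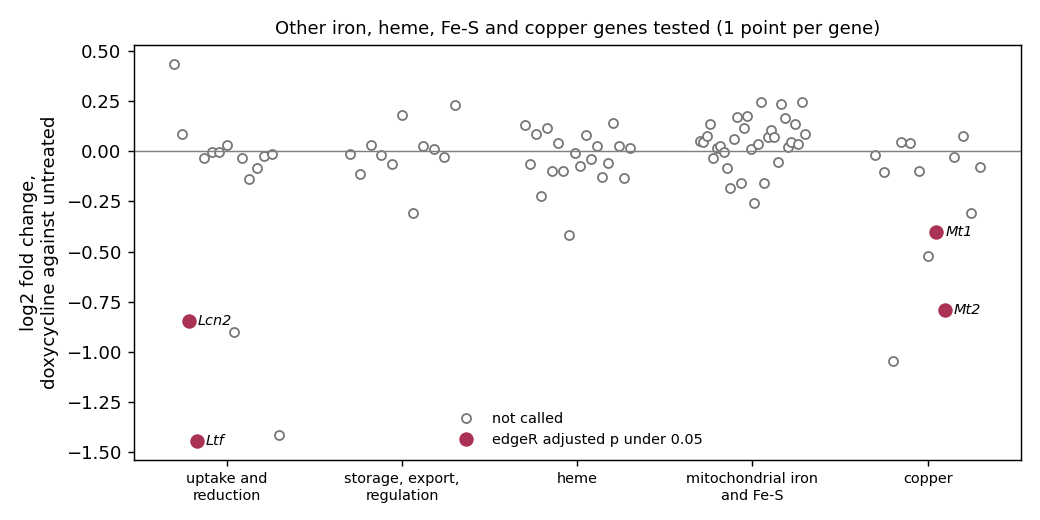
Log2 fold change of each tested gene in the lists for uptake and reduction, storage, export and regulation, heme, mitochondrial iron and iron-sulfur clusters, and copper, with filled points for genes past the threshold. The 4 filled points (Lcn2, Ltf, Mt1 and Mt2) all lie below 0, and most open points lie near 0.

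Both uptake genes that fell encode secreted iron binders of innate defence. Lcn2, lipocalin 2, which captures bacterial siderophores, had 100, 89.4 and 93.3 CPM in untreated and 54.7, 54.8 and 48.1 CPM in doxycycline libraries. The groups were far apart, and it fell by 0.85 on the log2 scale (SE 0.06, edgeR adjusted p = 3.26e-08). Ltf, lactoferrin, was at the low level of 1.94 ± 0.12 CPM in untreated and 0.710 ± 0.022 CPM in doxycycline libraries (n = 3 each, log2 difference -1.45, SE 0.27, adjusted p = 0.0031 by edgeR). The other 13 tested genes of this list were not called. Slc39a14, a transporter of iron not bound to transferrin, had 142 ± 2.07 CPM in untreated and 139 ± 2.23 CPM in doxycycline libraries (log2 difference -0.03, SE 0.04, adjusted p = 0.77 by edgeR). Of the other STEAP reductases, Steap1 (-0.02, SE 0.06) and Steap2 (-0.02, SE 0.05) had edgeR adjusted p = 0.90 and 0.92, and without doxycycline replicate 2 the value of Steap2 was 0.04. Steap4, a metalloreductase known to respond to inflammation, was lower in every doxycycline library at 1.21, 0.779 and 1.18 against 0.0629, 0.710 and 0.366 CPM, but was not called (log2 difference -1.41, SE 0.46, adjusted p = 0.11 by edgeR).

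The copper list was included because ceruloplasmin carries copper in its active form. Its calls were the metallothioneins, small cysteine-rich proteins that bind zinc and copper. Mt2 had 53.9, 55.5 and 68.7 CPM in untreated and 35.5, 31.9 and 35.5 CPM in doxycycline libraries. It fell by 0.79 on the log2 scale (SE 0.08, edgeR adjusted p = 4.09e-06), and the groups were well apart. Mt1 had 44.05, 39.8 and 48.3 CPM in untreated and 32.9, 34.9 and 32.2 CPM in doxycycline libraries, and fell by 0.40 (SE 0.07, edgeR adjusted p = 0.00196). In both genes untreated replicate 3 was the highest library, and without it the log2 fold changes were -0.68 for Mt2 and -0.33 for Mt1, still past the threshold. The copper importer gene Slc31a1 (0.08, SE 0.05, edgeR adjusted p = 0.51) and Atp7a (-0.10, SE 0.06, edgeR adjusted p = 0.40), which loads copper into secreted enzymes, were not called. Its paralog Atp7b, which loads ceruloplasmin in liver, had 1.08 ± 0.22 CPM in untreated and 0.521 ± 0.037 CPM in doxycycline libraries (log2 difference -1.05, SE 0.34, adjusted p = 0.10 by edgeR). The groups of Atp7b did not overlap.

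**Figure D5:**
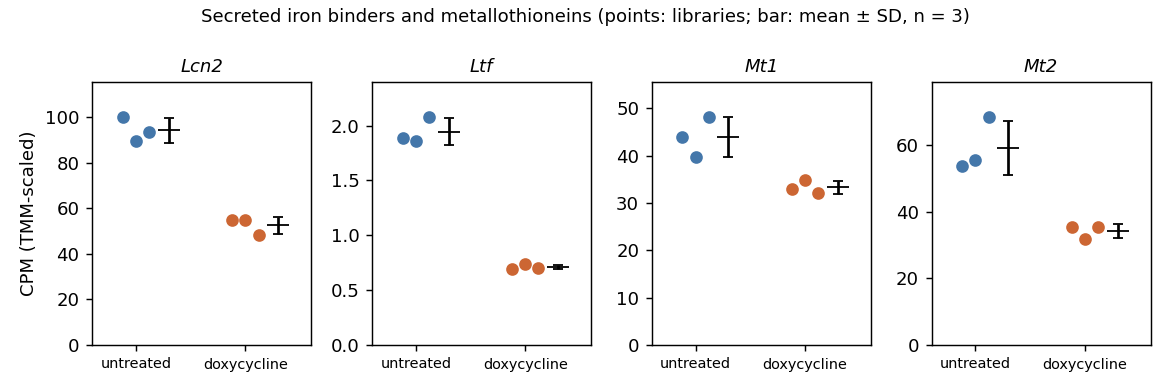
Levels of Lcn2, Ltf, Mt1 and Mt2 (y axis, CPM from 0) in each library, with points for libraries and a bar for the mean ± SD. In each panel all 3 doxycycline points lie below all 3 untreated points, with the widest gap relative to spread in Ltf and Lcn2.

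No gene of the storage, export and regulation list (11 tested), the heme list (20 tested) or the mitochondrial iron and iron-sulfur list (32 tested) was called by edgeR. The share of all genes tested that was called was 3.09%, and nothing is read from the lack of calls in lists this small. With no adjustment (p under 0.05) there were 2, 2 and 4, beside 16.2% of all genes tested. Limma voom and DESeq2 also called 0 in these lists. Ncoa4, the receptor that delivers ferritin to the autophagosome, differed by 0.03 on the log2 scale (SE 0.06, adjusted p = 0.88 by edgeR). Fbxl5, the iron-sensing subunit of the ligase that degrades IRP2, had -0.06 (SE 0.05, edgeR adjusted p = 0.60). Hmox1, the heme oxygenase that frees iron from heme, had 20.03 ± 1.06 CPM in untreated and 19.5 ± 0.58 CPM in doxycycline libraries (log2 difference -0.04, SE 0.08, adjusted p = 0.88 by edgeR). Epas1, the hypoxia factor HIF-2α, had 2 counts in untreated replicate 2 and 0 elsewhere. In the mitochondrial list 24 genes were above 0 and 8 below, with a median of 0.05. Among all genes tested 6641 were above 0 and 6441 below, with a median of 0.0025. The uptake list (3 above, 12 below) and the copper list (3 above, 10 below) leaned the other way. The storage list had 5 above and 6 below, and the heme list 9 above and 11 below.

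The same IRE search gave a group of genes that was not chosen by iron function. Such letters were in the coding sequence of 0.635% of genes searched and in the 3' UTR of 0.581%. A match therefore does not show a working element, and the group cannot tell whether genes with working elements responded. Outside the members, 126 genes held a site in the 3' UTR, of which 97 were tested. Of these 1 was called higher (Col23a1) and 2 lower (Ptgs1 and Tnip3), which is 3.09% against 3.09% of all genes tested. With no adjustment 20 of the 97 had p under 0.05, beside 16.2% of all genes. Of 19 tested genes with a site in the 5' UTR outside the members, edgeR called 0, and 2 had an unadjusted p under 0.05. In this group Alas2 has an established element:
Alas2, 5' UTR, chrX:150547459-150547485, plus strand: tggttCgtcctCAGTGCagggcaacag
Alas2, the erythroid enzyme that opens heme synthesis, had a low level of 4.83 ± 1.24 CPM in untreated and 5.19 ± 0.25 CPM in doxycycline libraries (log2 difference 0.11, SE 0.17, adjusted p = 0.80 by edgeR).

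Promoter letters were compared in RefSeq windows (GRCm38.p6) of 250 bases before to 50 bases after each start site, available for 7 of the 9 members and not for Slc40a1 and Slc11a2. Motifs were searched on both strands. The hypoxia response core was searched in its forms ACGTG and GCGTG. The form ACGTG was in the windows of Tfrc and in 19.6% of all 32851 windows. The form GCGTG was in windows of Tfrc, Ftl1, Fth1 and Steap3, though not in every window of Fth1 and Steap3, and in 32.4% of all windows. The 7 members had 13 windows, so a number of genes with a match cannot be set against a share of windows. The STAT motif TTCNNNGAA and the NRF2 half-site TGACNNNGC were in no window of a member and in 8.3% and 12.4% of all windows. Both windows of Cp held none of the 4 motifs. These matches describe the letters of short windows and not the binding of a factor.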

How the data were processed

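The authors sequenced ribosomal RNA-depleted, strand-preserving libraries of 6 samples, aligned the reads with STAR to mm10 (GRCm38) and used featureCounts to count reads in genes. The submitters' processing notes name bcl2fastq 2.20 and Subread 1.6.2. The deposited values are raw read counts per gene, without normalization and with replicates kept apart. The strand setting and the handling of multi-mapped reads are not given in the sources used here. Groups came from sample titles, columns were matched by library codes, and 0 columns were left over.

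The members and gene lists were chosen with earlier results of these data known. The test was edgeR 4.0.16 (R 4.3.3, quasi-likelihood, robust, TMM scaling, group as the only term) on the 13084 genes kept by filterByExpr, with Benjamini-Hochberg adjustment over all of them at 0.05. SE was taken as the size of the log2 fold change over the root of its F statistic. The study used DESeq2 with no covariate stated. Alternatives were other scalings and filters, a replicate block, DESeq2 1.42.0, limma 3.58.1 (voom) and leaving out each library. The scripts were tested on simulated data. For the likeness to Cp 0.5 CPM was added before log2.

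Genes named are the 9 members, up to 3 called genes with the largest change from each of 5 functional lists, a fixed set (Hmox1, Ncoa4, Fbxl5, Slc39a14, Heph, Hephl1, Lcn2, Ltf, Steap1, Steap2, Steap4, Slc31a1, Atp7a, Atp7b, Mt1, Mt2, Epas1, Hamp and others not reported here) and the 5 genes nearest to Cp. Genes outside this rule (Hps3, Herc2, Slc31a2, Slc25a28, Alas1, Lrp1, Alas2, Col23a1, Ptgs1 and Tnip3) were named after their values were seen. The same holds for the cell type markers named singly, other than Pdgfra. Gene coordinates are from RefSeq (GRCm38.p6), transcripts from GENCODE M21, counted from 1. Protein sequences were not analysed here.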

Additional observations from a re-analysis of the deposited data

How the results depend on the processing

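Over 14 alternatives the log2 fold change ran from -0.45 to -0.43 for Cp, from -0.25 to -0.15 for Fth1 and from -0.24 to -0.11 for Tfrc, which describes genes chosen on this same contrast and is no support for them. Lcn2, Mt1 and Mt2 were past the threshold in all 14. Ltf was past it in all 13 that gave it an adjusted p, DESeq2 giving none. Under every scaling tried, the median of all genes stayed between -0.0074 and 0.0025 (log2). Over all genes, 121 were called higher and 283 lower. Without a filter 210 were higher and 439 lower, with 1 listed iron or copper gene higher (Herc2), and the DESeq2 Wald test called 185 higher. The cause of these gains was not tested. With each library left out in turn, genes higher ran from 44 (without untreated replicate 3) to 269 (without doxycycline replicate 2) and genes lower from 116 to 487, by the same libraries. Members lower ran from 1 to 2, other iron, heme, iron-sulfur and copper genes higher from 0 to 2 and lower from 4 to 8. The labels number the replicates 1 to 3 in both groups, but deviations of same-numbered libraries correlated at -0.061, 0.023 and 0.017 across genes, so the numbers were not taken as pairs. With the replicate block 418 genes were called, sharing 382 of the 404 calls made without it, members called lower were 3 (Tfrc added), and the other iron and copper calls were 4 lower and 0 higher. Depth limits Slc40a1, Steap4, Ltf and Atp7b, all under 5 CPM.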
